A study of Homo sapiens with 10 samples.

Results

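The difference between the K149 effect and the AS1949490 effect asks, gene by gene, whether 2 inhibitors of the same enzyme, SHIP2, changed transcript levels by the same amount in one cell line. The line was KYSE-410, an established human esophageal squamous cell carcinoma line, and the labels name no further genotype or agent. Cells were collected 48 h after treatment with 2 µM K149 (3 libraries) or with 0.1% DMSO, the solvent, in libraries set beside them (3 libraries), and after treatment with 20 µM AS1949490 (2 libraries) or with 0.1% DMSO in a second set of DMSO libraries (2 libraries). Each compound was therefore read against its own DMSO libraries, and all 10 libraries entered the comparison. The difference was computed for 17837 of the 58302 genes in the table, those with a mean of at least 1 CPM (the reads of a gene scaled to one library total) in any of the 4 groups. An effect is the mean log2(CPM + 1) of the treated libraries minus that of their DMSO libraries, and the difference is the K149 effect minus the AS1949490 effect. A gene is called higher where the difference is above 0 and lower where it is below 0, at a limma adjusted p under 0.05 over all genes tested. A gene that fell less with K149 than with AS1949490 is thus also called higher. Only 1 dose of each compound was used and the doses differed, so no response was compared at a matched dose. In bulk RNA, fewer cells of a kind and less RNA per cell cannot be told apart, and the labels do not say whether replicates were separate cultures. The p-values therefore measure the spread between these libraries, which may be technical.

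SHIP2, encoded by INPPL1, is a lipid phosphatase. It acts on the membrane lipid that PI3-kinases make in answer to growth factors, and converts it to another signalling lipid. PI3-kinase lipids recruit the kinase AKT, which keeps the FOXO transcription factors out of the nucleus and feeds the growth pathway around mTORC1. Squamous epithelia are built from dividing basal cells, which carry the transcription factor TP63, and from differentiating layers that change their keratins. K149 is known here by its code name, and no structures were compared.

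The libraries fell into their 4 groups. The authors deposited CPM, and the steps between low values put the depth at 18.38 to 26.36 M reads per library, an inference from the values. The first principal component of log2(CPM + 1) held 60.6% of the variance and the second 29%, and the 2 DMSO sets stood apart from each other on both. Chi-square per degree of freedom between libraries of a group was 1.46 to 9.12, above sampling noise in every pair. Means below are given ± SD over the 3 libraries of a K149-arm group and the 2 of an AS1949490-arm group, and effects and differences ± SE. Of the squamous markers, TP63 (66.0 to 126 CPM over all libraries), ITGB4 (288 to 513) and TRIM29 (78.1 to 215) were well expressed. COL17A1 (4.947 to 44.9), DSG3 (3.098 to 24.2) and KRT5 (0.799 to 9.045) were at lower levels, KRT5 at 0.799 to 1.949 CPM with K149. KRT14 (0.2 to 1.15) and SOX2 (0.1 to 1.45) were near or under 1 CPM. Of markers of other cells, 13 of 15 immune, 8 of 11 fibroblast and 8 of 10 endothelial genes were under 1 CPM in every library, and CDX1 and CDX2 of the columnar list were at 0. The summed fibroblast markers, mostly LUM in the K149 arm, were 258.1 to 275.6 CPM with K149, 231.2 to 243.4 in its DMSO, 46.8 to 47.4 with AS1949490 and 40.2 to 45.1 in its DMSO. The summed columnar markers, with KRT7, KRT8 and KRT18 at the highest levels, were 5454.8 to 6040.9 CPM with K149, 5008.9 to 5259.1 in its DMSO, 3104.3 to 3163.8 with AS1949490 and 4182.0 to 4429.8 in its DMSO. The part of these markers in the results was not tested. Of 15 mitochondrially encoded genes 9 were higher, but 2 with quantile normalization, and of 10 nuclear-retained RNAs 2 were lower. Over all genes tested, 15.1% were higher and 25.3% lower.

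The 2 effects differed for many genes and in both directions. The difference was called for 7207 genes, 40.4% of those tested. Of these, 2699 were higher (15.1% of genes tested) and 4508 were lower (25.3%). A called difference of at least 2-fold, that is 1 on the log2 scale, was found for 331 genes in the higher direction (1.86%) and for 860 in the lower direction (4.82%). The median difference over all genes tested was -0.07, so lists of genes are read against that small offset. Quantile normalization put that median at 0.03, and the share of called genes that were higher was 37.4% as scaled by the authors, 44.4% with median-ratio scaling and 52.1% with quantile normalization. The balance between higher and lower calls over the whole transcriptome therefore rests on the scaling.

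Called genes fell into several kinds. In 1237 of the higher genes the K149 effect was called up and the AS1949490 effect was not called, and in 592 both were called up, with K149 the larger rise. A further 325 genes (1.82% of genes tested) were called up with K149 and down with AS1949490. Among the lower genes, 1543 were called down with K149 alone and 952 were called down with both, K149 taking them further. There were 568 genes (3.18%) called down with K149 and up with AS1949490. Both opposite sets changed in size with the settings. The 325 became 216 without AS1949490 replicate 2 and 508 with quantile normalization. The 568 became 355 without AS1949490 replicate 1, 373 with quantile normalization and 301 with DESeq2. A gene called with one compound only is not by that shown to differ, so the text speaks of a difference only where the difference itself was called.

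**Figure D1:**
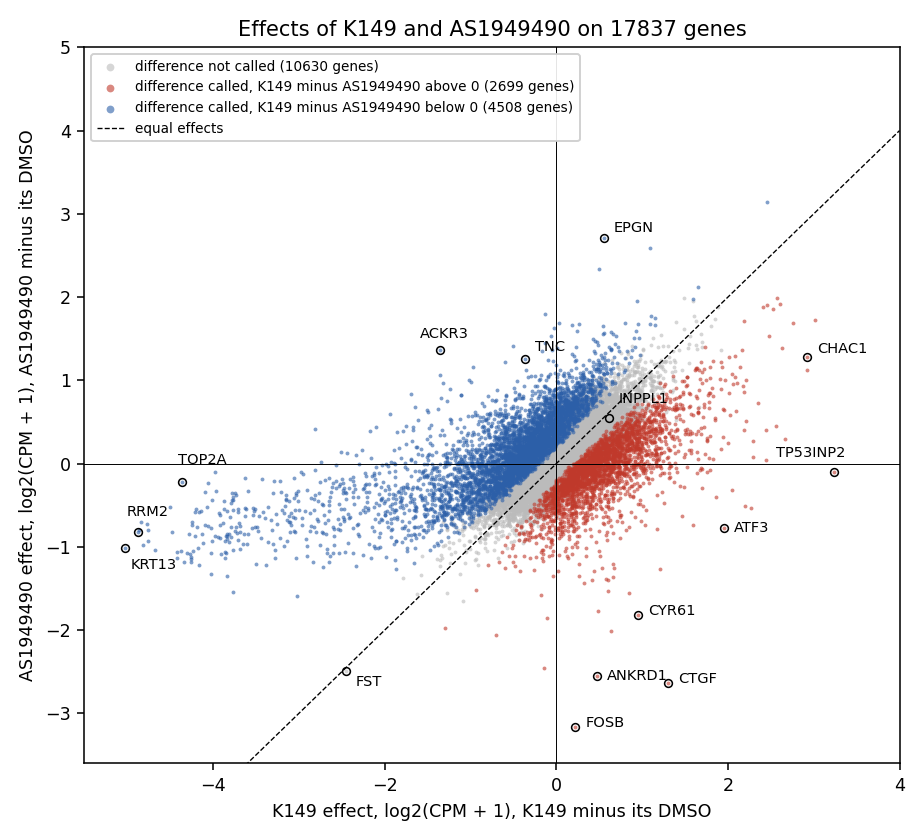
Each point is 1 of 17837 genes, with the K149 effect on the horizontal axis and the AS1949490 effect on the vertical axis, both in log2(CPM + 1) against the compound's own DMSO libraries. Points on the dashed line have equal effects, the 2699 red points are called higher and the 4508 blue points lower, and the long arm to the left holds genes such as TOP2A and RRM2 that fell far more with K149 than with AS1949490.

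The gene of the target rose with both compounds, and its difference was not called. INPPL1 (chr11:72223701-72239105, plus strand on hg38) had 169.7, 166 and 185 CPM with K149 and 119.5, 118 and 102 CPM in its DMSO libraries, and 205 and 192 CPM with AS1949490 and 141 and 130.0 CPM in its DMSO libraries. Treated libraries were above their DMSO libraries without overlap in both arms. The K149 effect was 0.61 ± 0.07 and the AS1949490 effect 0.55 ± 0.08 (log2 ± SE), and the difference was 0.07 ± 0.11, with a 95% interval of -0.16 to 0.29 and a limma adjusted p of 0.648. Transcript level is no readout of enzyme activity, so it does not check the treatment.

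Enzymes that make, convert or remove PI3-kinase lipids differed in both directions. Of 41 tested members, 10 were higher and 9 lower, against 15.1% and 25.3% of all genes, and 22 were not called. K149 was called up for 26 members and down for 5, where 35.8% of all genes were up and 30.6% down. AS1949490 was called up for 30 and down for 3, where 32.1% were up and 19.5% down. The median difference was -0.05 and was above 0 with quantile normalization, so its sign rests on the scaling. Within it, PIK3R3, a regulatory subunit of PI3-kinase, had 73.8 ± 3.35 CPM with K149 and 31.05 ± 0.854 CPM in its DMSO, and 15.9 ± 0.283 CPM with AS1949490 and 13.04 ± 0.00283 CPM in its DMSO, and its difference was 0.96 ± 0.09 (limma adjusted p 3.19e-06). INPP5K, a phosphatase of the same broad family as SHIP2, had 32.3, 35.8 and 32.4 CPM with K149 and 18.7, 17.6 and 19.1 CPM in its DMSO libraries, and 15.3 and 16.8 CPM with AS1949490 and 19.8 and 18.3 CPM in its DMSO libraries. It was above its DMSO libraries with K149 and below them with AS1949490, from DMSO levels that overlapped. Its difference was 1.06 ± 0.11 (limma adjusted p 7.49e-06). PI4K2B, a PI 4-kinase, differed by -1.14 ± 0.16 from DMSO means of 31.3 CPM in the K149 arm and 13.5 CPM in the AS1949490 arm, but 36.6% of its exon bases lie in other genes' exons and its level is uncertain.

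Components of AKT and mTORC1 signalling had 4 higher and 5 lower members of 28, beside 15.1% higher and 25.3% lower over all genes, with a median of -0.01 that was above 0 with median-ratio scaling and with quantile normalization. IRS2 and IRS1, adaptors of the insulin receptor, had differences of opposite sign. IRS2 had 17.7, 19.4 and 17.3 CPM with K149 and 7.296, 8.04 and 9.595 CPM in its DMSO libraries, and 18.9 and 18.2 CPM with AS1949490 and 24.6 and 31.2 CPM in its DMSO libraries. Its libraries did not overlap their DMSO libraries in either arm, rising with K149 and falling with AS1949490, for a difference of 1.60 ± 0.16 (limma adjusted p 4.70e-06). IRS1 had 42.5 ± 6.81 CPM with K149 and 82.4 ± 1.36 CPM in its DMSO, and 41.9 ± 1.91 CPM with AS1949490 and 39.6 ± 6.37 CPM in its DMSO. Its difference was -1.04 ± 0.16 (limma adjusted p 2.05e-04). It fell with K149, and its AS1949490 effect of 0.09 was not called. The DMSO sets were 1.05 apart on the log2 scale and the treated libraries 0.006 apart. DEPTOR, an inhibitor that binds mTOR, had a difference of 0.99 ± 0.16, from DMSO means of 7.23 CPM in the K149 arm and 1.95 CPM in the AS1949490 arm.

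FOXO targets stood on the higher side. Of 24 tested, 14 were higher and 4 lower, where 15.1% of all genes were higher and 25.3% lower. The median difference was 0.75 beside -0.07 over all genes. The list's median effect was 0.75 with K149 and 0.10 with AS1949490. TXNIP, which inhibits thioredoxin and glucose uptake, had 112, 95.5 and 119.9 CPM with K149 and 22.1, 17.7 and 17.8 CPM in its DMSO libraries, and 72.0 and 66.95 CPM with AS1949490 and 59.8 and 45.4 CPM in its DMSO libraries. Every treated library was above its DMSO libraries, and K149 raised it further, by 2.04 ± 0.17 more on the log2 scale (limma adjusted p 7.89e-07). FBXO32, an F-box subunit of a ubiquitin ligase, had 44.1, 41.98 and 45.8 CPM with K149 and 15.9, 15.6 and 14.1 CPM in its DMSO libraries, and 39.5 and 37.5 CPM with AS1949490 and 61.0 and 58.7 CPM in its DMSO libraries. It rose with K149 and fell with AS1949490 without overlap, and the difference was 2.10 ± 0.10 (limma adjusted p 2.01e-09). PIK3IP1, an inhibitor of PI3-kinase at the membrane, had 18.4 ± 0.504 CPM with K149 and 4.76 ± 0.652 CPM in its DMSO, and 2.95 ± 0 CPM with AS1949490 and 3.22 ± 0.0361 CPM in its DMSO, a rise with K149 only among the called effects, and a difference of 1.85 ± 0.15 (limma adjusted p 4.34e-07).

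Cell division genes were lower throughout. All 44 tested genes of G1/S and DNA replication and all 45 of G2/M and mitosis were lower, beside 25.3% of all genes. The median difference was -2.35 for the G1/S list and -3.03 for the G2/M list. K149 was called down for every member, beside 30.6% of all genes. Its median effect was -3.10 for G1/S and -3.87 for G2/M. AS1949490 was called down for 42 G1/S genes and 40 G2/M genes, beside 19.5% of all genes. Its median effect was -0.74 for G1/S and -0.76 for G2/M. The median starting difference, DMSO of the K149 arm minus DMSO of the AS1949490 arm, was -0.16 for G1/S and 0.17 for G2/M. The counts of lower genes were the same with median-ratio scaling, quantile normalization and edgeR on whole reads. The smallest difference of the G1/S list was -0.45 for SLBP, the histone mRNA binding protein, from DMSO means of 64.8 CPM in the K149 arm and 61.6 CPM in the AS1949490 arm. That of the G2/M list was -0.62 for BUB3 of the spindle checkpoint, from DMSO means of 172 CPM in the K149 arm and 153 CPM in the AS1949490 arm.

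Many G2/M genes are repressed in resting cells through a short promoter element, the CHR, which sits beside CCAAT boxes bound by NF-Y. The 250 bases before the start of 2 of the largest fallers are shown for that reason, 5′ to 3′ on the coding strand, with matches to the CHR (TTTGAA or TTCGAA) and to CCAAT in capitals on either strand (TTCAAA and ATTGG are matches on the other strand), from RefSeq on GRCh38.p14. TOP2A is at chr17:40417897-40418146 and DLGAP5 at chr14:55191586-55191835, both on the minus strand.
TOP2A: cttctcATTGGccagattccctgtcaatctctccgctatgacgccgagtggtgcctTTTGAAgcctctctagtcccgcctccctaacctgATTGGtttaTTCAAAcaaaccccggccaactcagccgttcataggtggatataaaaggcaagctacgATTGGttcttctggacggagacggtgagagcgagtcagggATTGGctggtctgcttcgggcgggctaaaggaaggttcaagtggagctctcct
DLGAP5: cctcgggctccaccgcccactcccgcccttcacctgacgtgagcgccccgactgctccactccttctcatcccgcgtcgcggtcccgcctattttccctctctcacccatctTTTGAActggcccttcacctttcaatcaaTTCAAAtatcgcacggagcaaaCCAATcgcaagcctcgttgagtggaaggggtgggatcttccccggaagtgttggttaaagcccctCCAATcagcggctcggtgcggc
TOP2A has CHR letters starting 194 and 151 bases before its start and 4 CCAAT matches at 244, 160, 93 and 53 bases. DLGAP5 has CHR letters at 138 and 109 bases and CCAAT at 87 and 22 bases. CHR letters were present in 18 of the 38 G2/M promoters matched in the table (47.4%) and in 2 of 39 G1/S promoters (5.13%), against 14.3% of all 35116 promoters. CCAAT was present in 28 of the G2/M promoters (73.7%) and 21 of the G1/S promoters (53.8%), against 32.0% of all. Lists described below that were not lower throughout had shares close to that of G1/S. These were integrated stress response genes (17 of 31 promoters, 54.8%) and immediate early genes (11 of 21, 52.4%). The YAP and TEAD list was below the share of all promoters. CHR letters were present in 4 of 21 immediate early promoters (19.0%), 3 of 31 integrated stress response promoters (9.68%) and 0 of 20 YAP and TEAD promoters. Whether either motif had a part in the falls was not tested. A match describes the letters only.

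TOP2A, the topoisomerase that untangles DNA for mitosis, had 25.4, 24.9 and 23.8 CPM with K149 and 519, 544 and 521 CPM in its DMSO libraries, and 237 and 209.9 CPM with AS1949490 and 221 and 305 CPM in its DMSO libraries. The K149 libraries lay far below every other library, while the AS1949490 libraries overlapped their DMSO libraries. The K149 effect was -4.36 ± 0.09, the AS1949490 effect -0.22 ± 0.11, and the difference -4.14 ± 0.14 (limma adjusted p 6.84e-11). DLGAP5, a spindle protein, had 3.75, 4.098 and 4.95 CPM with K149 and 112, 123 and 119 CPM in its DMSO libraries, and 41.8 and 40.8 CPM with AS1949490 and 58.7 and 60.5 CPM in its DMSO libraries. Both compounds lowered it without overlap, and the difference was -3.99 ± 0.12 (limma adjusted p 3.27e-11). RRM2, the inducible subunit of ribonucleotide reductase, had 8.64, 9.595 and 8.49 CPM with K149 and 284, 284 and 302 CPM in its DMSO libraries, and 231 and 250.1 CPM with AS1949490 and 428 and 422 CPM in its DMSO libraries. It fell with both, the K149 effect being -4.88 and the AS1949490 effect -0.82, for a difference of -4.06 ± 0.09 (limma adjusted p 3.62e-12). AC007240.1, an annotated gene that overlaps RRM2 on the same strand and has 49.4% of its exon bases in other exons, differed by -4.04, and its reads cannot be told apart from those of RRM2; its DMSO means were 144 CPM in the K149 arm and 206 CPM in the AS1949490 arm.

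Other replication and mitosis genes repeated this with different starting levels. MCM10, a replication origin factor, had 1.18 ± 0.321 CPM with K149 and 61.9 ± 0.87 CPM in its DMSO, and 39.9 ± 0.354 CPM with AS1949490 and 70.2 ± 8.35 CPM in its DMSO, and a difference of -4.06 ± 0.15. CDC45, part of the replicative helicase, had 2.13 ± 0.34 CPM with K149 and 78.99 ± 2.66 CPM in its DMSO, and 51.01 ± 1.91 CPM with AS1949490 and 106 ± 9.59 CPM in its DMSO, and a difference of -3.64 ± 0.13. MYBL2, a transcription factor of the mitotic programme, had 17.1 ± 0.952 CPM with K149 and 507 ± 6.71 CPM in its DMSO, and 316 ± 0.95 CPM with AS1949490 and 624 ± 25.3 CPM in its DMSO, and a difference of -3.84 ± 0.08. All 3 were called down with both compounds and lower in the difference (limma adjusted p 1.43e-10, 9.40e-11 and 2.73e-12). FAM111B, a protease, and ESCO2, a cohesin acetyltransferase, were also among the 8 genes with the most negative differences, at -3.97 ± 0.13 and -3.89 ± 0.18, from DMSO means of 63.1 CPM in the K149 arm and 46.8 CPM in the AS1949490 arm for FAM111B and of 50.04 CPM in the K149 arm and 31.6 CPM in the AS1949490 arm for ESCO2. ESCO2 was not called with AS1949490, and its K149 effect was -3.98.

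**Figure D2:**
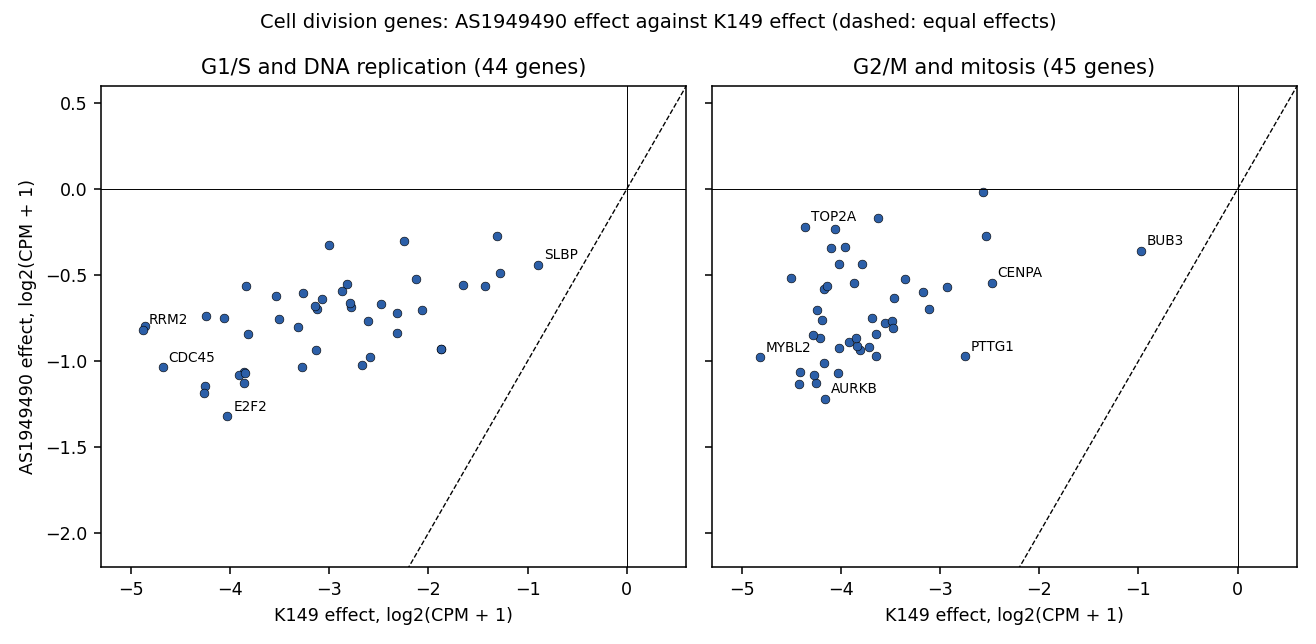
Each point is 1 gene of the G1/S list (left, 44 genes) or the G2/M list (right, 45 genes), with the K149 effect on the horizontal axis and the AS1949490 effect on the vertical axis, both in log2(CPM + 1). All points lie left of the dashed line of equal effects: the median K149 effects are -3.10 and -3.87, and the median AS1949490 effects -0.74 and -0.76.

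Replication-dependent histone genes went the other way from the replication list. Of 12 tested, 7 were higher and none lower, where 15.1% of all genes were higher and 25.3% lower. Their median difference was 0.56, and their DMSO levels differed by a median of 0.15. HIST1H2BC had 8.39 ± 0.314 CPM with K149 and 1.18 ± 0.161 CPM in its DMSO, and 4.32 ± 0.389 CPM with AS1949490 and 1.72 ± 0.317 CPM in its DMSO, and a difference of 1.14 ± 0.16 (limma adjusted p 1.04e-04). These genes are near copies of each other, so the level of any single one is uncertain.

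Growth genes were lower. Of 38 MYC targets and ribosome biogenesis genes, 27 were lower and 1 higher, beside 25.3% and 15.1% of all genes. The median difference was -0.46, and 22 were lower with median-ratio scaling and 24 with quantile normalization. Both compounds lowered most members, K149 37 and AS1949490 31, beside 30.6% and 19.5% of all genes called down. TCOF1, the nucleolar treacle protein, had 56.96 ± 1.82 CPM with K149 and 182 ± 2.297 CPM in its DMSO, and 187 ± 5.97 CPM with AS1949490 and 319 ± 1.95 CPM in its DMSO, and a difference of -0.89 ± 0.07 (limma adjusted p 3.98e-07). POLR1B, a subunit of RNA polymerase I, had 41.7, 39.7 and 41.1 CPM with K149 and 65.9, 64.96 and 69.2 CPM in its DMSO libraries, and 72.2 and 67.8 CPM with AS1949490 and 55.95 and 60.4 CPM in its DMSO libraries. It fell with K149 and rose with AS1949490 without overlap in either arm, and differed by -0.96 ± 0.09 (limma adjusted p 1.53e-06). Messages for the ribosomal proteins themselves showed no such gap. Of 59 tested, 1 was lower (RPL3, -0.37 ± 0.09, DMSO means 751 CPM in the K149 arm and 692 CPM in the AS1949490 arm) and none higher. Both compounds lowered most of the 59, K149 54 and AS1949490 57, beside 30.6% and 19.5% of all genes called down. Median effects were -0.37 for K149 and -0.33 for AS1949490. The median difference was -0.05; its sign turned with median-ratio scaling.

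Targets of YAP and TEAD, the factors that read cell shape and contact, leaned higher, and several rose with K149 and fell with AS1949490. Of 28 tested, 18 were higher and 4 lower, beside 15.1% and 25.3% of all genes, with a median difference of 0.57. The list's median effect was 0.44 with K149 and -0.28 with AS1949490. Its median starting difference was -0.70, so these genes started lower in the K149 arm. The upstream 250 bases of the 2 members with the largest difference are shown because TEAD factors are known to bind GGAATG. Matches to GGAATG, to the AP-1 motif TGANTCA and to CCAAT on either strand (ATTGG on the other strand) are in capitals, 5′ to 3′ on the coding strand, from RefSeq on GRCh38.p14. CTGF, named CCN2 in RefSeq, is at chr6:131951373-131951622 and ANKRD1 at chr10:90921088-90921337, both on the minus strand.
CTGF: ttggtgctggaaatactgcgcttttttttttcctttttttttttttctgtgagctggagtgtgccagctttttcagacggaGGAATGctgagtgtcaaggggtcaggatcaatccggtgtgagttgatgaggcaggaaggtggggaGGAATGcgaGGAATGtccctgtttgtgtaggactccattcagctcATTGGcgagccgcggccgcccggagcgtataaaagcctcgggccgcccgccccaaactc
ANKRD1: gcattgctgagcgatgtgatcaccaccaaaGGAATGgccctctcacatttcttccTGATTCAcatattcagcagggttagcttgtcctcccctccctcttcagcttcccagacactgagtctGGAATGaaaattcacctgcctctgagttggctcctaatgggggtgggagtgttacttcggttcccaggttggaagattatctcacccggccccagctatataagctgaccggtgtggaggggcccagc
CTGF holds GGAATG at 169, 104 and 95 bases before its start and CCAAT at 59 bases, and ANKRD1 holds GGAATG at 220 and 128 bases and an AP-1 match at 195 bases. GGAATG was found in 6 of the 20 list promoters matched (30.0%) and in 11.9% of all promoters, and the AP-1 letters in 6.57% of all.

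CTGF, a secreted matrix-associated protein (chr6:131948176-131951373, minus strand), had 46.4, 51.02 and 39.7 CPM with K149 and 18.1, 21.5 and 14.5 CPM in its DMSO libraries, and 27.9 and 25.8 CPM with AS1949490 and 136 and 215 CPM in its DMSO libraries. K149 libraries were above their DMSO libraries and AS1949490 libraries below theirs, with no overlap in either arm. The K149 effect was 1.30 ± 0.15, the AS1949490 effect -2.63 ± 0.19, and the difference 3.93 ± 0.24, the largest positive one among the genes named by the rule (limma adjusted p 2.96e-08). The DMSO libraries themselves differed by -3.19 ± 0.17, while the treated libraries of the 2 arms differed by 0.74 ± 0.17, K149 minus AS1949490. CYR61, a related secreted protein, had 88.4, 94.7 and 80.1 CPM with K149 and 43.6, 47.4 and 43.4 CPM in its DMSO libraries, and 99.8 and 104 CPM with AS1949490 and 319 and 409 CPM in its DMSO libraries. The pattern was that of CTGF, with a difference of 2.77 ± 0.13 (limma adjusted p 1.92e-09) and DMSO sets -2.99 ± 0.09 apart. ANKRD1, an ankyrin-repeat cofactor, had 12.8, 12.04 and 10.4 CPM with K149 and 7.95, 8.99 and 7.496 CPM in its DMSO libraries, and 10.4 and 8.14 CPM with AS1949490 and 54.5 and 64.1 CPM in its DMSO libraries. Its treated libraries overlapped between the arms, and the difference of 3.03 ± 0.17 (limma adjusted p 1.11e-08) stood beside a gap of -2.72 ± 0.12 between the DMSO sets. AMOTL2, an angiomotin that restrains YAP, had 182 ± 8.45 CPM with K149 and 100.5 ± 0.401 CPM in its DMSO, and 165 ± 4.94 CPM with AS1949490 and 282 ± 46.2 CPM in its DMSO, and a difference of 1.61 ± 0.11 (limma adjusted p 8.67e-08).

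Immediate early genes answer growth factors and stress within minutes. They were higher for 23 of 27 and lower for none, beside 15.1% and 25.3% of all genes. The median difference was 0.64, made of a median rise of 0.32 with K149 (17 up, 3 down) and a median effect of -0.39 with AS1949490 (1 up, 16 down). Over all genes, 35.8% were called up and 30.6% down with K149, and 32.1% up and 19.5% down with AS1949490. The DMSO sets were -1.17 apart in the median, lower in the K149 arm. ATF3, a stress-induced transcription factor, had 28.6, 31.03 and 29.4 CPM with K149 and 6.996, 6.596 and 7.096 CPM in its DMSO libraries, and 51.5 and 57.8 CPM with AS1949490 and 83.8 and 105 CPM in its DMSO libraries. It rose with K149 and fell with AS1949490, yet the AS1949490 libraries stayed above the K149 libraries. The difference was 2.73 ± 0.13 (limma adjusted p 1.92e-09). FOSB, an AP-1 subunit, had 1.45, 1.25 and 1.698 CPM with K149 and 1.199, 0.849 and 1.299 CPM in its DMSO libraries, and 4.297 and 3.198 CPM with AS1949490 and 33.6 and 50.6 CPM in its DMSO libraries. K149 libraries overlapped their DMSO libraries near 1 CPM, AS1949490 libraries lay below theirs, and the difference was 3.39 ± 0.24 (limma adjusted p 1.04e-07). At such levels the added 1 CPM compresses a fold change, so the K149 side of this difference is weakly measured. EGR3, a zinc-finger factor, differed by 2.65 ± 0.34 from DMSO means of 0.45 CPM in the K149 arm and 9.89 CPM in the AS1949490 arm, the K149-arm value resting on few reads. CSRNP1, outside the list, a nuclear protein first described as induced by AXIN, had 32.4 ± 1.02 CPM with K149 and 17.99 ± 0.606 CPM in its DMSO, and 63.6 ± 0.248 CPM with AS1949490 and 112 ± 1.895 CPM in its DMSO, and differed by 1.62 ± 0.09 (limma adjusted p 6.03e-09).

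**Figure D3:**
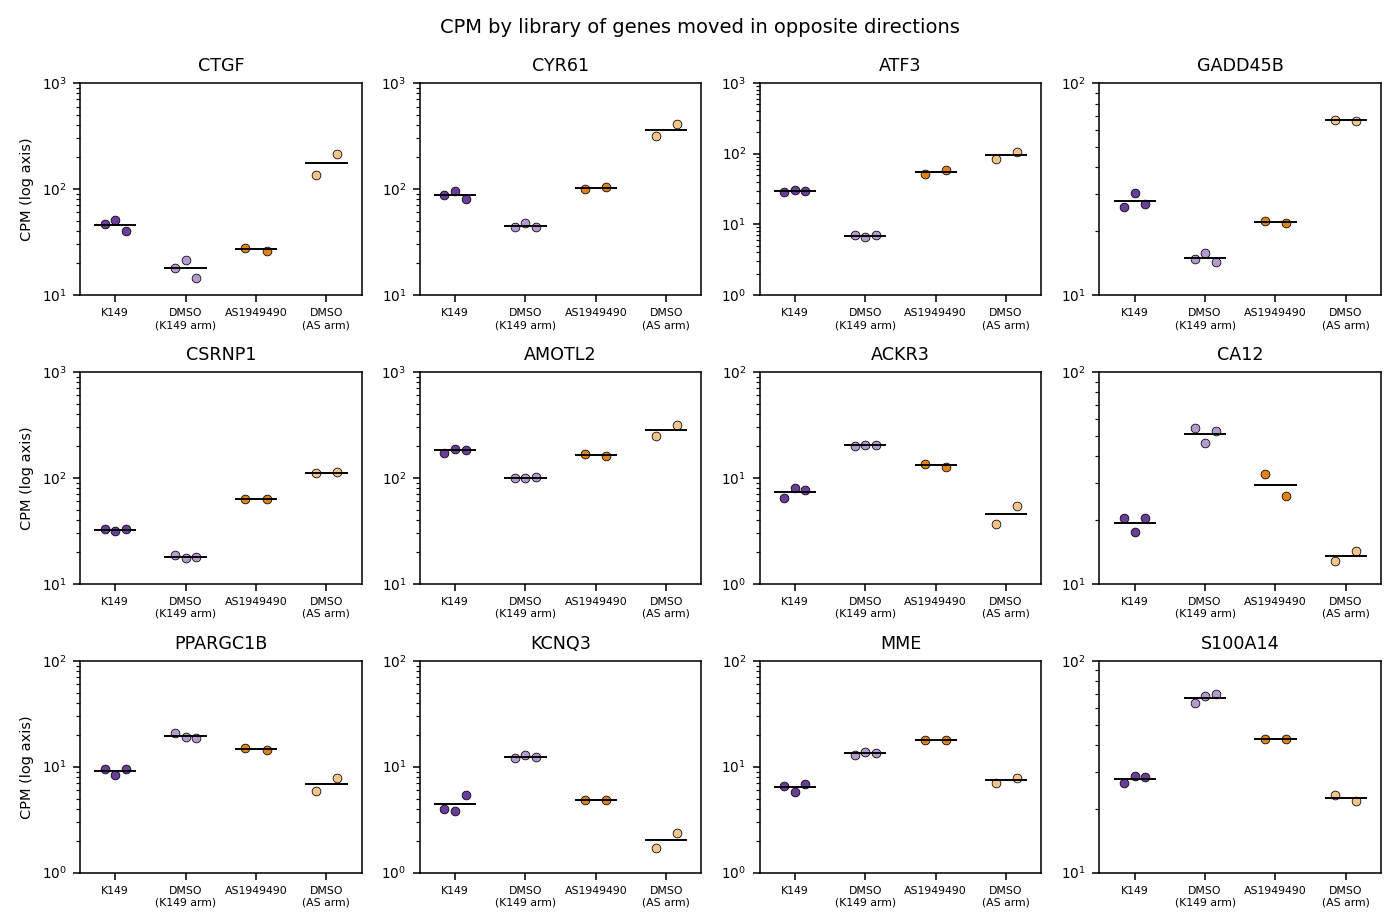
Each panel shows CPM on a log axis, 1 point per library and a bar at the group mean, for 12 genes called in opposite directions with the 2 compounds. In the first 6 panels, CTGF to AMOTL2, K149 libraries stand above their DMSO libraries and AS1949490 libraries below theirs, and in the last 6, ACKR3 to S100A14, both orders are turned round.

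TGF-beta response genes also leaned higher. Of 28 tested, 19 were higher and 2 lower, beside 15.1% and 25.3% of all genes, and the median difference was 0.85. The list's median effect was 0.40 with K149 and -0.15 with AS1949490, and its median starting difference was -0.37. The list shares CTGF with the YAP list. TGFB2, a ligand of the pathway, had 24.2 ± 1.23 CPM with K149 and 15.6 ± 1.05 CPM in its DMSO, and 17.7 ± 1.98 CPM with AS1949490 and 54.2 ± 16.1 CPM in its DMSO, and a difference of 2.14 ± 0.19 (limma adjusted p 1.43e-06); 26.6% of its exon bases are shared and its level is uncertain. INHBA, which encodes an activin subunit, had 1.799, 1.599 and 1.898 CPM with K149 and 2.199, 2.099 and 1.65 CPM in its DMSO libraries, and 19.1 and 16.2 CPM with AS1949490 and 52.7 and 84.01 CPM in its DMSO libraries. AS1949490 libraries lay below their DMSO libraries, K149 libraries overlapped theirs at about 2 CPM, and the difference was 1.75 ± 0.23 (limma adjusted p 4.51e-05). GADD45B, a stress and TGF-beta induced signalling protein counted in the YAP list, had 26.03, 30.4 and 26.9 CPM with K149 and 14.8, 15.7 and 14.3 CPM in its DMSO libraries, and 22.3 and 21.9 CPM with AS1949490 and 66.9 and 66.6 CPM in its DMSO libraries. It rose with K149 and fell with AS1949490 without overlap, and differed by 2.40 ± 0.11 (limma adjusted p 1.23e-09).

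Actin and growth factor genes were called in both directions, where 15.1% of all genes were higher and 25.3% lower. Of 26 SRF and actin genes, 11 were higher and 4 lower. AS1949490 was called down for 19, beside 19.5% of all genes. The median starting difference of this list was -0.71. TUFT1 had 113 ± 0.549 CPM with K149 and 65.8 ± 1.69 CPM in its DMSO, and 129 ± 0.143 CPM with AS1949490 and 210.3 ± 20.9 CPM in its DMSO, and a difference of 1.47 ± 0.09 (limma adjusted p 1.54e-08), and ZYX, the focal adhesion protein zyxin, differed by 1.01 ± 0.09 from DMSO means of 85.2 CPM in the K149 arm and 298 CPM in the AS1949490 arm. Of 28 MAPK-ERK output genes, 11 were higher and 6 lower, with a median starting difference of -1.12. AREG, the EGF receptor ligand amphiregulin, had 13.5, 15.5 and 12.2 CPM with K149 and 3.298, 3.398 and 3.85 CPM in its DMSO libraries, and 57.7 and 67.2 CPM with AS1949490 and 67.2 and 63.4 CPM in its DMSO libraries. K149 raised it without overlap and AS1949490 libraries overlapped their DMSO libraries, for a difference of 1.77 ± 0.15 (limma adjusted p 6.21e-07). Even so the K149 libraries stayed far below every library of the AS1949490 arm. HBEGF, another EGF receptor ligand, differed by 1.29 ± 0.13 from DMSO means of 3.58 CPM in the K149 arm and 49.2 CPM in the AS1949490 arm. Among 16 ERBB receptors and ligands 4 were higher and 6 lower, with a median starting difference of -0.75. EPGN, the ligand epigen, had 1.499, 1.299 and 1.55 CPM with K149 and 0.5, 0.5 and 1.05 CPM in its DMSO libraries, and 22.2 and 22.3 CPM with AS1949490 and 2.35 and 2.75 CPM in its DMSO libraries. Both compounds raised it, AS1949490 by 2.71 and K149 by 0.56, and the difference was -2.16 ± 0.20 (limma adjusted p 1.57e-06).

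NF-kB and cytokine genes were higher for 15 of 27 and lower for 3, beside 15.1% and 25.3% of all genes. AS1949490 was called down for 16 of the 27 and K149 for 3, beside 19.5% and 30.6% of all genes. The list's median effect was 0.0 with K149 and -0.39 with AS1949490. Its median starting difference was -0.96. BIRC3, an inhibitor of apoptosis, had 18.8 ± 3.29 CPM with K149 and 12.2 ± 0.985 CPM in its DMSO, and 31.2 ± 1.94 CPM with AS1949490 and 49.3 ± 10.4 CPM in its DMSO, and a difference of 1.203 ± 0.20 (limma adjusted p 3.24e-04). CSF3, a cytokine gene, had 0.3 ± 0.0866 CPM with K149 and 0.35 ± 0.1 CPM in its DMSO, and 3.82 ± 0.177 CPM with AS1949490 and 0.875 ± 0.105 CPM in its DMSO. It passed the filter of 1 CPM through the AS1949490 libraries, where it was high, so its difference of -1.42 ± 0.17 is a description. PTHLH, parathyroid hormone-like hormone, was outside these lists but among the 8 largest positive differences. It had 32.4, 38.7 and 28.4 CPM with K149 and 5.297, 5.896 and 6.996 CPM in its DMSO libraries, and 80.99 and 84.2 CPM with AS1949490 and 114 and 125 CPM in its DMSO libraries. It rose with K149 and fell with AS1949490, while the 3 K149 libraries stayed below both AS1949490 libraries, and the difference was 2.801 ± 0.17 (limma adjusted p 1.88e-08).

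The following genes fell with K149 and rose with AS1949490. ACKR3, a chemokine receptor that does not couple to G proteins in the usual way, had 6.396, 8.05 and 7.64 CPM with K149 and 19.99, 20.5 and 20.6 CPM in its DMSO libraries, and 13.4 and 12.7 CPM with AS1949490 and 3.65 and 5.397 CPM in its DMSO libraries. Each treated set stood clear of its DMSO set, and the difference was -2.73 ± 0.18 (limma adjusted p 5.10e-08). CA12, a carbonic anhydrase of the cell surface, had 20.4, 17.5 and 20.4 CPM with K149 and 54.6, 46.4 and 52.5 CPM in its DMSO libraries, and 32.98 and 25.8 CPM with AS1949490 and 12.7 and 14.3 CPM in its DMSO libraries. It showed the same order, with a difference of -2.41 ± 0.15 (limma adjusted p 3.93e-08). MME, the membrane peptidase neprilysin, differed by -2.13 ± 0.14 from DMSO means of 13.4 CPM in the K149 arm and 7.42 CPM in the AS1949490 arm, KCNQ3, a potassium channel, by -2.29 ± 0.19 from 12.4 CPM in the K149 arm and 2.02 CPM in the AS1949490 arm, and PPARGC1B, a coactivator of mitochondrial genes, by -2.03 ± 0.16 from 19.5 CPM in the K149 arm and 6.896 CPM in the AS1949490 arm. All 5 started higher in the K149 arm, by 0.78 to 2.16 on the log2 scale.

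Squamous genes were lower more often than higher, beside 25.3% of all genes lower and 15.1% higher. Of 23 tested genes of squamous differentiation, 12 were lower and 2 higher, with a median difference of -0.37. KRT13, a keratin of the upper layers of the esophageal lining, had 10.6, 9.79 and 15.6 CPM with K149 and 416, 411 and 418 CPM in its DMSO libraries, and 1.05 and 1.299 CPM with AS1949490 and 2.998 and 3.798 CPM in its DMSO libraries. It fell with both compounds without overlap, but its DMSO levels were 6.57 ± 0.15 apart on the log2 scale, so the fall with AS1949490 was read from a few CPM. The difference was -4.01 ± 0.21 (limma adjusted p 3.95e-09). KRT4, the partner of KRT13, had 5.696 ± 0.606 CPM with K149 and 30.3 ± 0.784 CPM in its DMSO, and 2.12 ± 0.176 CPM with AS1949490 and 2.77 ± 0.67 CPM in its DMSO, and differed by -1.97 ± 0.17 (limma adjusted p 8.00e-07). S100A14, a calcium-binding protein, had 26.5, 28.4 and 28.3 CPM with K149 and 63.5, 68.4 and 69.4 CPM in its DMSO libraries, and 42.6 and 42.8 CPM with AS1949490 and 23.3 and 21.7 CPM in its DMSO libraries. It fell with K149 and rose with AS1949490 without overlap, and differed by -2.14 ± 0.09 (limma adjusted p 8.67e-10). Of 27 genes of the basal squamous cell, 11 were lower and 6 higher. TRIM29, a basal marker used above to check the line, had 129 ± 4.63 CPM with K149 and 209.8 ± 5.06 CPM in its DMSO, and 144 ± 5.19 CPM with AS1949490 and 84.6 ± 9.24 CPM in its DMSO, and differed by -1.46 ± 0.09 (limma adjusted p 3.49e-08). DSC3, a desmosomal cadherin, differed by -1.24 ± 0.15 from overlapping DMSO levels, with means of 66.5 CPM in the K149 arm and 61.6 CPM in the AS1949490 arm. KRT5 differed by -1.701 ± 0.26 from DMSO means of 8.91 CPM in the K149 arm and 7.02 CPM in the AS1949490 arm.

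Interferon-stimulated genes were lower for 18 of 31 and higher for 3, where 25.3% of all genes were lower and 15.1% higher. Their median was -0.43 beside -0.07 over all genes. K149 was called up for 9 and down for 15, beside 35.8% and 30.6% of all genes. AS1949490 was called up for 16 and down for 4, beside 32.1% and 19.5%. The list started 0.66 higher in the K149 arm. OAS3, a sensor of double-stranded RNA, had 45.9, 42.3 and 49.8 CPM with K149 and 145, 138 and 147 CPM in its DMSO libraries, and 78.1 and 77.6 CPM with AS1949490 and 67.3 and 68.3 CPM in its DMSO libraries. K149 lowered it and AS1949490 raised it a little, both without overlap, for a difference of -1.82 ± 0.09 (limma adjusted p 4.33e-09). OASL differed by -2.33 ± 0.19 from DMSO means of 8.095 CPM in the K149 arm and 2.199 CPM in the AS1949490 arm, and OAS1 by -1.58 ± 0.14 from 56.4 CPM in the K149 arm and 5.096 CPM in the AS1949490 arm. The 3 higher members were ISG20, IFI6 and IRF7, named here after their values were seen, at 1.04, 1.10 and 1.41; their DMSO means were 1.77 CPM in the K149 arm and 4.32 CPM in the AS1949490 arm for ISG20, 4.78 CPM in the K149 arm and 5.47 CPM in the AS1949490 arm for IFI6 and 6.596 CPM in the K149 arm and 10.02 CPM in the AS1949490 arm for IRF7. MHC class I and peptide loading genes had 6 higher and 4 lower of 18, beside the same shares of all genes. ERAP2, a peptide-trimming protease, was at -0.81 ± 0.12 from DMSO means of 193 CPM in the K149 arm and 92.2 CPM in the AS1949490 arm.

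**Figure D4:**
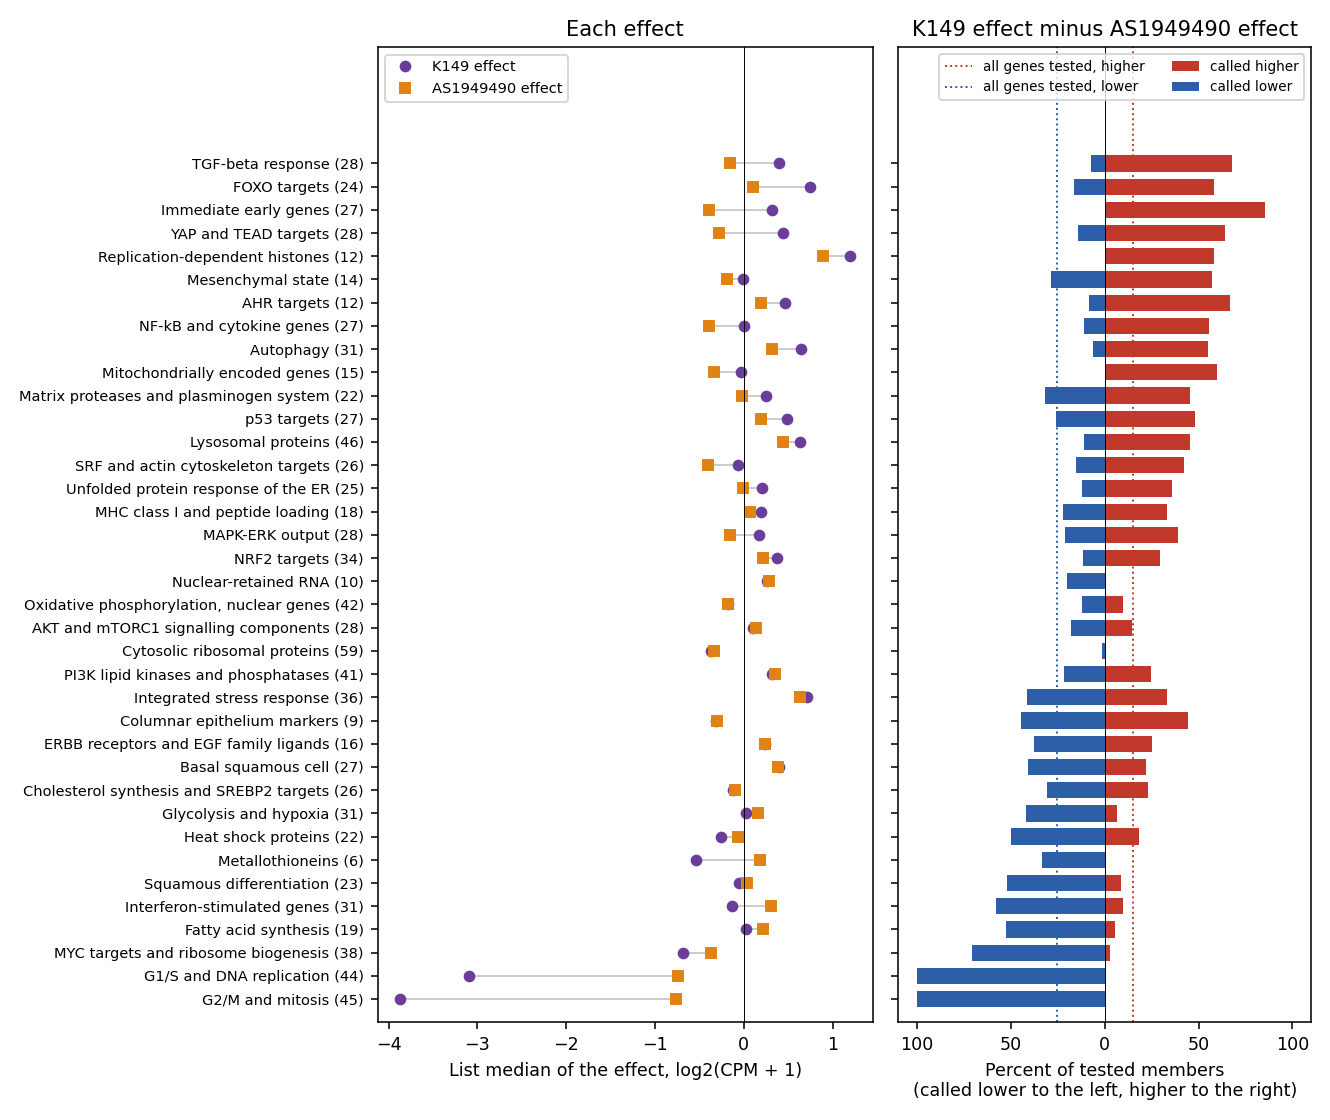
The left panel gives, for each of 37 gene lists (tested members in brackets), the median K149 effect (circles) and the median AS1949490 effect (squares) in log2(CPM + 1); the right panel gives the percent of tested members called lower (left of 0) and higher (right of 0) in the difference. Dotted lines mark the 15.1% higher and 25.3% lower of all genes tested, and the G1/S and G2/M lists at the bottom reach 100% lower.

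Each compound raised most genes of the integrated stress response list, and their differences went in both directions. Of 36 tested, K149 was called up for 30 and AS1949490 for 30, beside 35.8% and 32.1% of all genes. The difference was higher for 12 and lower for 15, beside 15.1% and 25.3% of all genes. The median difference was -0.06, of either sign among the scalings. The higher members included the stress effectors CHAC1 and DDIT3. CHAC1, which degrades glutathione, had 29.9, 37.2 and 32.9 CPM with K149 and 3.55, 3.498 and 3.498 CPM in its DMSO libraries, and 34.98 and 36.02 CPM with AS1949490 and 14.2 and 13.9 CPM in its DMSO libraries. Both compounds raised it without overlap to treated levels that overlapped, but from DMSO levels -1.74 ± 0.09 apart, for a difference of 1.64 ± 0.13 (limma adjusted p 3.27e-07). DDIT3, the pro-apoptotic factor CHOP, differed by 1.62 ± 0.12 from DMSO means of 21.8 CPM in the K149 arm and 60.96 CPM in the AS1949490 arm, with 39.6% of its exon bases shared and its level uncertain. Its AS1949490 effect of 0.11 was not called. ATF3, described above, had the largest difference of this list, 2.73, and was called down with AS1949490, at -0.77. The lower members included enzymes of serine and one-carbon metabolism, named after their values were seen: PHGDH at -0.91, PSAT1 at -0.55, PSPH at -0.57 and SHMT2 at -0.63. Their DMSO means were 194 CPM in the K149 arm and 179.8 CPM in the AS1949490 arm for PHGDH, 107 CPM in the K149 arm and 106 CPM in the AS1949490 arm for PSAT1, 35.7 CPM in the K149 arm and 26.4 CPM in the AS1949490 arm for PSPH and 187 CPM in the K149 arm and 246 CPM in the AS1949490 arm for SHMT2. For PHGDH, the first enzyme of serine synthesis, the K149 effect was -0.47 and the AS1949490 effect 0.45.

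Other stress lists are read beside 15.1% of all genes higher and 25.3% lower. The unfolded protein response had 9 higher and 3 lower of 25, led by HERPUD1, of the ER degradation machinery, at 0.81 ± 0.09 from DMSO means of 33.03 CPM in the K149 arm and 38.9 CPM in the AS1949490 arm. NRF2 targets had 10 higher and 4 lower of 34. OSGIN1, an oxidative stress gene, had 51.3 ± 7.95 CPM with K149 and 14.1 ± 1.27 CPM in its DMSO, and 68.8 ± 3.25 CPM with AS1949490 and 54.5 ± 6.31 CPM in its DMSO, and differed by 1.46 ± 0.16 (limma adjusted p 8.70e-06). The aldo-keto reductases AKR1B10 and AKR1C1 were lower, at -1.48 ± 0.20 and -1.09 ± 0.17, with DMSO means of 73.2 CPM in the K149 arm and 11.9 CPM in the AS1949490 arm for AKR1B10 and 79.01 CPM in the K149 arm and 44.5 CPM in the AS1949490 arm for AKR1C1. Heat shock genes had 4 higher and 11 lower of 22, and the lower count was 7 with median-ratio scaling and 15 with quantile normalization. HSPB8 had the largest difference in size of this list. It was higher, at 0.71 ± 0.09, from DMSO means of 64.3 CPM in the K149 arm and 89.4 CPM in the AS1949490 arm. HSPA8, the constitutive chaperone, had 1265 ± 30.5 CPM with K149 and 1728 ± 51.4 CPM in its DMSO, and 1506 ± 76.3 CPM with AS1949490 and 1413 ± 61.5 CPM in its DMSO, and differed by -0.54 ± 0.08 (limma adjusted p 8.62e-05). AHR targets had 8 higher and 1 lower of 12. NQO1, a quinone reductase on the NRF2 list too, differed by 0.76 ± 0.11 from DMSO means of 548 CPM in the K149 arm and 659.8 CPM in the AS1949490 arm. The lower one was AHR itself, at -0.98 ± 0.21, with DMSO means of 226 CPM in the K149 arm and 57.2 CPM in the AS1949490 arm and 32.3% of its exon bases shared. Metallothioneins had 2 lower of 6, MT1E and MT1F, at -1.06 ± 0.18 and -0.87 ± 0.21 from DMSO means of 6.296 CPM in the K149 arm and 8.04 CPM in the AS1949490 arm for MT1E and 5.73 CPM in the K149 arm and 1.85 CPM in the AS1949490 arm for MT1F.

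Targets of p53 did not move as a block. Of 27, 13 were higher and 7 lower, beside 15.1% and 25.3% of all genes. TP53INP1, an inducer of autophagic and apoptotic death, had 49.02, 41.8 and 49.7 CPM with K149 and 5.75, 4.55 and 5.75 CPM in its DMSO libraries, and 5.55 and 5.496 CPM with AS1949490 and 1.65 and 2.399 CPM in its DMSO libraries. Both compounds raised it without overlap, K149 by 1.80 more (SE 0.18, limma adjusted p 3.89e-06). FAS, the death receptor, had 4.097, 4.35 and 4.05 CPM with K149 and 11.9, 11.1 and 10.2 CPM in its DMSO libraries, and 17.04 and 17.7 CPM with AS1949490 and 12.04 and 11.6 CPM in its DMSO libraries. It fell with K149 and rose with AS1949490 from overlapping DMSO levels, and differed by -1.74 ± 0.13 (limma adjusted p 1.78e-07). DDB2, a DNA damage binding protein, fell with both and differed by -1.45 ± 0.10, from DMSO means of 46.8 CPM in the K149 arm and 31.9 CPM in the AS1949490 arm.

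Most lysosome and autophagy genes were called up with each compound, counted separately, and many differences were higher. K149 was called up for 41 of 46 lysosomal genes and AS1949490 for 34, beside 35.8% and 32.1% of all genes. The difference was higher for 21 and lower for 5, beside 15.1% and 25.3% of all genes. For 31 autophagy genes these counts were 26 and 17, with 17 higher and 2 lower. NEU1, a lysosomal sialidase, had 186, 205 and 186 CPM with K149 and 59.7, 58.2 and 63.7 CPM in its DMSO libraries, and 79.2 and 83.2 CPM with AS1949490 and 58.1 and 48.2 CPM in its DMSO libraries. Every treated library was above its DMSO libraries, and the difference was 1.04 ± 0.11 (limma adjusted p 6.22e-06) from DMSO means near each other. GABARAPL1, a coat protein of autophagosomes, had 132 ± 5.32 CPM with K149 and 31.7 ± 1.47 CPM in its DMSO, and 65.8 ± 2.23 CPM with AS1949490 and 43.5 ± 3.17 CPM in its DMSO, and differed by 1.44 ± 0.09 (limma adjusted p 5.04e-08). ULK1, the kinase that starts autophagy, differed by 1.45 ± 0.13 from DMSO means of 33.9 CPM in the K149 arm and 47.1 CPM in the AS1949490 arm. TP53INP2, which takes part in autophagosome formation, was among the 8 largest positive differences of genes with at least 5 CPM in a DMSO set and in a treated set. It had 78.7, 77.6 and 75.1 CPM with K149 and 7.496, 7.95 and 6.397 CPM in its DMSO libraries, and 10.9 and 11.5 CPM with AS1949490 and 11.2 and 13.04 CPM in its DMSO libraries. The 3 K149 libraries stood apart from every other library, AS1949490 libraries overlapped their DMSO libraries, and the difference was 3.34 ± 0.13 (limma adjusted p 2.64e-10). TFEB, a master regulator of lysosomal genes, went against its list. It had 12.8, 15.8 and 14.1 CPM with K149 and 24.5, 27.5 and 24.3 CPM in its DMSO libraries, and 14.2 and 13.1 CPM with AS1949490 and 8.79 and 9.24 CPM in its DMSO libraries, which fell with K149 and rose with AS1949490 to overlapping treated levels, for a difference of -1.35 ± 0.14 (limma adjusted p 4.38e-06).

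Genes of fatty acid synthesis and of glycolysis were lower more often than higher, beside 25.3% of all genes lower and 15.1% higher. Of 19 fatty acid synthesis genes 10 were lower and 1 higher. SCD, the desaturase that makes oleate, had 471, 408 and 516 CPM with K149 and 603, 619 and 555 CPM in its DMSO libraries, and 109 and 92.4 CPM with AS1949490 and 41.4 and 49.8 CPM in its DMSO libraries. K149 lowered it and AS1949490 raised it, both without overlap, but the DMSO sets were 3.67 ± 0.10 apart and the K149 libraries kept a multiple of the AS1949490 level. The difference was -1.48 ± 0.14 (limma adjusted p 2.64e-06). The desaturases FADS2 and FADS1 differed by -1.55 ± 0.12 and -1.42 ± 0.09, with DMSO means of 27.3 CPM in the K149 arm and 18.04 CPM in the AS1949490 arm for FADS2 and 186 CPM in the K149 arm and 90.9 CPM in the AS1949490 arm for FADS1. Cholesterol synthesis had 6 higher and 8 lower of 26, beside the same shares of all genes. The lower count was 5 with median-ratio scaling and 4 with quantile normalization. The most negative member of this list was TMEM97, a sterol-regulated protein, at -0.94 ± 0.07 from DMSO means of 271 CPM in the K149 arm and 183 CPM in the AS1949490 arm. Glycolysis and hypoxia genes had 13 lower and 2 higher of 31, with differences from -2.57 to 0.69. LDHA, lactate dehydrogenase, had 351, 374 and 339 CPM with K149 and 748, 771 and 781 CPM in its DMSO libraries, and 832 and 827 CPM with AS1949490 and 818 and 778 CPM in its DMSO libraries. Its DMSO sets overlapped and only the K149 effect was called, at -1.11 ± 0.05, for a difference of -1.17 ± 0.07 (limma adjusted p 3.79e-08). HK2, a hexokinase, also from overlapping DMSO levels (107 CPM in the K149 arm and 105 CPM in the AS1949490 arm), differed by -1.07 ± 0.11. Nuclear genes of oxidative phosphorylation gave 4 higher and 5 lower of 42, smaller shares than those of all genes.

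Matrix proteases and the plasminogen system had 10 higher and 7 lower of 22, where 15.1% of all genes were higher and 25.3% lower. The median starting difference of this list was -0.66. SERPINB2, an inhibitor of plasminogen activators, had 0.799, 0.15 and 0.649 CPM with K149 and 9.94, 9.44 and 9.29 CPM in its DMSO libraries, and 74.0 and 98.8 CPM with AS1949490 and 91.3 and 88.9 CPM in its DMSO libraries. K149 took it below 1 CPM in all 3 libraries, AS1949490 libraries overlapped their DMSO libraries, and the difference was -2.74 ± 0.23 (limma adjusted p 6.21e-07). Of 14 genes of the mesenchymal state 8 were higher and 4 lower, with a median difference of 0.47. The list's median effect was -0.004 with K149 and -0.19 with AS1949490. Its median starting difference was -1.06, lower in the K149 arm. The members named here are among the lower ones. TNC, the matrix protein tenascin C, had 1.899, 2.099 and 1.85 CPM with K149 and 2.95, 2.35 and 3.098 CPM in its DMSO libraries, and 131 and 124 CPM with AS1949490 and 49.4 and 56.2 CPM in its DMSO libraries. AS1949490 raised it without overlap, K149 lowered it from about 3 CPM, and the difference was -1.62 ± 0.15 (limma adjusted p 1.53e-06). LOX, which crosslinks collagen, differed by -1.51 ± 0.19 from DMSO means of 12.2 CPM in the K149 arm and 17.9 CPM in the AS1949490 arm.

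In 980 lower and 425 higher genes the AS1949490 effect was called and the K149 effect was not. PLIN4, a lipid droplet coat protein, had 26.5, 26.3 and 26.1 CPM with K149 and 29.9, 29.98 and 27.1 CPM in its DMSO libraries, and 30.4 and 26.1 CPM with AS1949490 and 6.54 and 8.35 CPM in its DMSO libraries. AS1949490 raised it to near the level of all 6 libraries of the K149 arm, and the difference was -1.93 ± 0.14 (limma adjusted p 1.26e-07). SYT7, a calcium sensor of vesicle fusion, had 10.4, 11.1 and 11.6 CPM with K149 and 12.2, 11.3 and 11.1 CPM in its DMSO libraries, and 32.9 and 30.4 CPM with AS1949490 and 10.7 and 9.89 CPM in its DMSO libraries. Here the DMSO sets were close to each other, AS1949490 raised it and K149 libraries overlapped their DMSO libraries, for a difference of -1.59 ± 0.12 (limma adjusted p 2.66e-07). PLA2G4F, a phospholipase, and TTC39A differed by -1.67 ± 0.13 and -1.34 ± 0.19, from DMSO means of 14.9 CPM in the K149 arm and 8.59 CPM in the AS1949490 arm for PLA2G4F and 9.34 CPM in the K149 arm and 2.25 CPM in the AS1949490 arm for TTC39A. In the other direction, DKK1, a secreted WNT inhibitor, had 49.97, 53.2 and 48.4 CPM with K149 and 50.5, 47.6 and 51.3 CPM in its DMSO libraries, and 55.1 and 56.7 CPM with AS1949490 and 131 and 146 CPM in its DMSO libraries. AS1949490 lowered it to near the level of the K149 arm, where K149 libraries overlapped their DMSO libraries, and the difference was 1.31 ± 0.09 (limma adjusted p 1.24e-07). UBALD1 differed by 1.32 ± 0.17 from DMSO means of 14.7 CPM in the K149 arm and 37.7 CPM in the AS1949490 arm. NATD1 was the reverse case, a large positive difference with no called AS1949490 effect: it had 24.8, 22.4 and 25.97 CPM with K149 and 3.398, 4.098 and 3.498 CPM in its DMSO libraries, and 6.45 and 6.296 CPM with AS1949490 and 7.74 and 4.897 CPM in its DMSO libraries, and differed by 2.41 ± 0.20 (limma adjusted p 6.11e-07).

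For other genes the 2 effects were close within the precision of these libraries. The 95% interval of the difference lay within 0.5 of 0 for 6489 genes, 36.4% of those tested. That count asks for no response to either compound and takes in called and uncalled differences, so it is no count of like responses. Effects of at least 2-fold, called with both compounds and with an interval inside that range, were found for 39 genes up and 8 down. FST, the activin-binding protein follistatin, had 1.35, 0.999 and 1.598 CPM with K149 and 12.1, 10.6 and 11.99 CPM in its DMSO libraries, and 6.79 and 7.29 CPM with AS1949490 and 41.02 and 47.5 CPM in its DMSO libraries. Both compounds lowered it without overlap, with a K149 effect of -2.45 and an AS1949490 effect of -2.49, for a difference of 0.04 ± 0.17 with an interval of -0.32 to 0.40. With 5 CPM added in place of 1, the FST difference was 0.64 and was called, so its likeness rests on the scale. A called difference was also gained by ALPP (-0.346) and PLEKHO1 (0.295) with 5 CPM added, by GPNMB (-0.314) with 0.25 added, by PLEKHO1 (0.408) with quantile normalization and by ADAMTS15 (-0.346) with edgeR on 8 libraries. GPNMB, a lysosome-associated membrane glycoprotein, had 83.5, 78.3 and 85.7 CPM with K149 and 27.8, 26.5 and 25.04 CPM in its DMSO libraries, and 16.3 and 16.5 CPM with AS1949490 and 3.897 and 4.25 CPM in its DMSO libraries. Both raised it, from DMSO levels 2.44 ± 0.08 apart, and the interval of the difference was -0.40 to 0.06. ADM2, an adrenomedullin-family hormone, rose by 1.88 ± 0.08 and 1.88 ± 0.10, with an interval of -0.28 to 0.27 and DMSO means of 3.33 CPM in the K149 arm and 7.27 CPM in the AS1949490 arm. SEL1L3 and LAMP3, a lysosomal membrane protein, had intervals of -0.06 to 0.31 and -0.47 to 0.29, and among the genes that fell, ALPP, a placental-type alkaline phosphatase, ADAMTS15, a matrix protease, and PLEKHO1 had intervals of -0.43 to 0.31, -0.49 to 0.08 and -0.07 to 0.48. DMSO means were 40.9 CPM in the K149 arm and 47.4 CPM in the AS1949490 arm for SEL1L3, 5.68 CPM in the K149 arm and 4.35 CPM in the AS1949490 arm for LAMP3, 35.2 CPM in the K149 arm and 11.6 CPM in the AS1949490 arm for ALPP, 26.98 CPM in the K149 arm and 58.4 CPM in the AS1949490 arm for ADAMTS15 and 9.63 CPM in the K149 arm and 20.1 CPM in the AS1949490 arm for PLEKHO1.

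Starting levels decide how a difference of effects can be read, since it equals the gap between the treated libraries minus the gap between the DMSO sets. The DMSO sets differed for 11809 genes, 6615 higher in the K149 arm (37.1% of genes tested) and 5194 lower (29.1%), and by at least 2-fold for 1953. Of the 331 genes at least 2-fold higher, the larger gap lay between the DMSO sets for 189 and between the treated libraries for 142. Of the 860 at least 2-fold lower, it lay between the DMSO sets for 290 and between the treated libraries for 570. In 54 of the 331 and 79 of the 860 the treated libraries lay within 0.25 of each other, so that nearly all of the difference was a starting gap that was no longer seen after treatment. In 49 and 233 the DMSO sets lay within 0.25, so that nearly all of it was between the treated libraries. MCM10, LDHA and INPP5K were cases of this second kind, with starting gaps of -0.17, -0.06 and -0.04. ANKRD1 came near the first kind, with a gap of 0.31 between treated libraries and -2.72 between DMSO sets. Nothing in the labels says why the DMSO sets differed. Whether a compound's effect depends on that starting state was not tested, because no library received K149 from the starting state of the AS1949490 arm, or AS1949490 from that of the K149 arm.

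**Figure D5:**
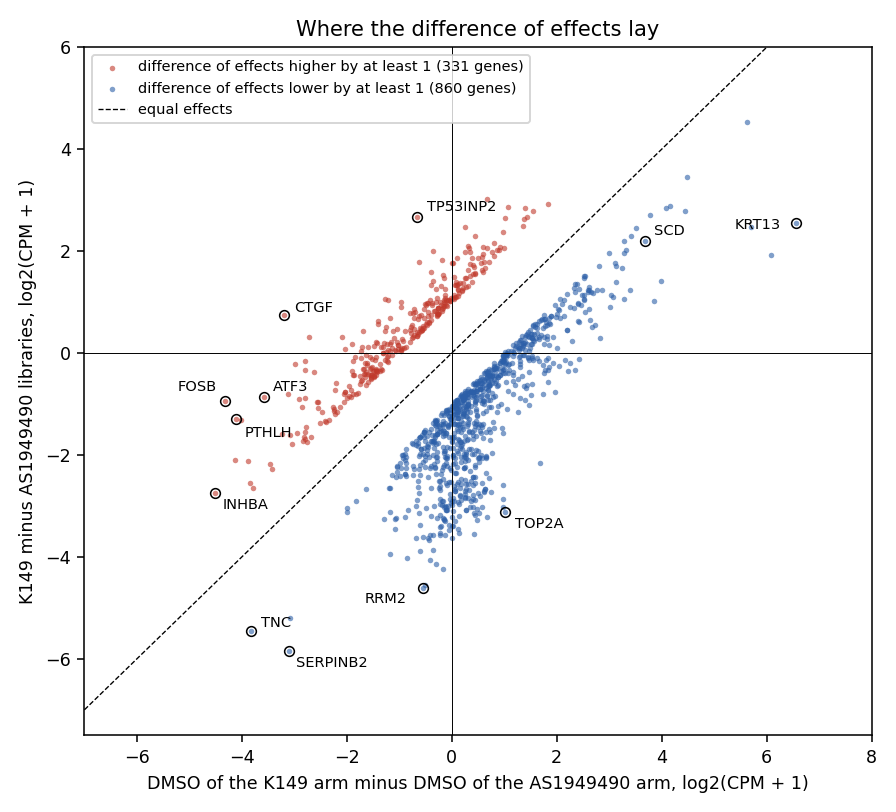
Each point is 1 of the 1191 genes with a called difference of at least 2-fold, with the gap between the DMSO sets on the horizontal axis and the gap between the treated libraries on the vertical axis, K149 arm minus AS1949490 arm in log2(CPM + 1). The vertical distance of a point from the dashed line is the difference of effects: SERPINB2 and RRM2 lie far down, where the treated libraries differ most, and KRT13 far right, where the DMSO sets do.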

How the data were processed

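Transcripts were measured by RNA sequencing of total RNA from KYSE-410 cells, with libraries made by the Ovation Solo kit, per the labels' protocols. The submitters' processing notes name STAR 2.5.3a, HTSeq and hg38. No source used here gives the annotation, the counting rule or the use of strand. The deposited table held CPM, which is not a read count, for 58302 gene IDs in 10 libraries. Of these, 58039 were matched to GENCODE 29 for positions and exon overlap. Genes with at least 25% of their exon bases inside other genes' exons are called uncertain.

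CPM values were turned into log2(CPM + 1) and fitted with limma 3.58.1 (R 4.3.3), using empirical Bayes moderation with a trend and 4 group means over all 10 libraries and genes of at least 1 CPM in any group. Benjamini-Hochberg adjustment ran over all 17837 genes, with calls at an adjusted p under 0.05. A fold change on this scale is understated for low genes, and equal fold effects from unequal starting levels give a difference other than 0. Low values were whole multiples of a step (100.0% within 0.05 of one), from which whole reads were inferred: 20.02 to 23.05 M per library with K149, 20.8 to 22.01 in its DMSO, 26.18 to 26.36 with AS1949490 and 18.38 to 20.79 in its DMSO. edgeR 4.0.16 (quasi-likelihood) and DESeq2 1.42.0 on these reads were alternatives. On these reads edgeR called 6871 genes in the difference and DESeq2 6091. The fits were also run on simulated counts. These had the same added spread for every gene, and differences were planted only in genes of at least 5 CPM in every group. That run cannot show how the fits behave on lower genes or on libraries of unequal spread.

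Gene lists, members and the rule for named genes (INPPL1, the largest differences of each sign above 5 CPM, opposite, like and single-compound effects, and the leading members of each list) were chosen with earlier results of these data known. Lists carry no test. Promoter sequences are those of RefSeq on GRCh38.p14. Further alternatives were the pseudocount, the filter, the scaling, the empirical Bayes settings, a replicate block and leaving out each library.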

Additional observations from a re-analysis of the deposited data

How the results depend on the processing

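Most counts kept within 1.5 times of the value given: 216 of 228 did. With 0.25 added in place of 1 CPM, genes at least 2-fold higher numbered 525 in place of 331; with 5 added, 150 were higher and 478 in place of 860 lower, as a larger constant shrinks every fold change of low genes. The genes at least 2-fold higher numbered 621 with edgeR, 596 with DESeq2 and 629 with edgeR on the 8 libraries whose lowest CPM step was filled, an alternative added after seeing the data. Genes called up with K149 and down with AS1949490 numbered 508 with quantile normalization and 216 to 336 when 1 library was left out, lowest without AS1949490 replicate 2. Genes called down with K149 and up with AS1949490 numbered 373 with quantile normalization, 301 with DESeq2, 332 with edgeR on 8 libraries, and 355 to 699 when 1 library was left out, lowest without AS1949490 replicate 1. Apart from the count after adding 5 and the single libraries named, the cause was not tested. Leaving out 1 library gave 1904 to 2699 genes higher and 3469 to 4726 lower. Of the 1191 genes at least 2-fold apart, 1151 to 1191 were called in the same direction under every alternative except the filter of 5 CPM, under which 1051 were and the others were not tested.

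Among 135 named genes, MT-CO1 reversed to -0.0333 with quantile normalization. In 41 other cases over all alternatives a named gene lost its call, among them STARD4 under 10 and ESAM under 11 of 23 alternatives, and DEPTOR, HIST1H2BD and MT1F with edgeR on 8 libraries. In 6 cases FST, GPNMB, ALPP, PLEKHO1 or ADAMTS15, named for like effects, gained a called difference. Lists with a median above 0 numbered 19 of 37 as given and 19 to 24 under the alternatives. Over lists and alternatives, 232 medians moved by more than the spread between replicates and 619 did not. The histone median of 0.56 was 0.25 with 5 CPM added, that of squamous differentiation was -0.67 in place of -0.37 with edgeR on 8 libraries, and that of the ribosomal proteins ran from -0.15 to 0.06 as either DMSO library of the AS1949490 arm was left out. Replicate numbers, taken from the titles, were not used to pair libraries in the main fit. Deviations of same-numbered libraries correlated at -0.01 to 0.1 in the K149 arm and at -0.24 in the AS1949490 arm. There the crossed value of 0.24 follows from having 2 libraries per group, so these values cannot show whether libraries of that arm were paired. The library names number the AS1949490 libraries 2 and 3 and their DMSO libraries 1 and 3, so the numbers of that arm are uncertain. With the replicate block, 2353 genes were higher and 4055 lower; with the AS1949490 numbers crossed, added after seeing the data, 2819 and 4729. At this depth values under 1 CPM rest on few reads. The median SE of the difference was 0.136, with 2 libraries per group in the AS1949490 arm and 3 in the K149 arm.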
